A study of Mus musculus with 6 samples.

Results

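The acute-phase genes described here are 10 mouse genes, chosen by name: Saa1, Saa2, Saa3, Lcn2, Hp, Orm1, Ptx3, Serpina3n, Serpina3g and Cp. All 10 names had exactly 1 row in a count table of 54532 genes. Bulk RNA sequencing was used to measure them in cultures, labelled as endothelial, that came from aortas of male wild-type mice. Each of 3 cell isolations gave a culture stimulated for 8 h with 500 ng/mL lipopolysaccharide (LPS), a bacterial outer-membrane component recognised by the receptor Tlr4, and a culture kept for 8 h in starvation medium without it (Vehicle). The groups therefore held 3 LPS and 3 Vehicle libraries, and the comparison asks which of these genes respond to LPS. The purification of the cells, their passage number and any pooling of animals were not stated, and neither was the age of the mice.

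The acute-phase response is the change in secreted defence proteins that follows infection or injury. In the liver, the cytokines Il6 and Il1b drive it through the transcription factors Stat3, C/EBP and nuclear factor kappa B. Serum amyloid A proteins bind lipoproteins and attract leukocytes; in mice Saa1 and Saa2 are made mainly by hepatocytes, and Saa3 mainly outside the liver, for example by macrophages and adipocytes. Lcn2 withholds iron from bacteria by binding their siderophores, Hp captures free haemoglobin, Ptx3 is a soluble pattern-recognition protein made by vascular and innate immune cells, and Cp is a copper-carrying ferroxidase.

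Total counts lay between 16509197 and 25082714 per library, and levels are given as CPM, a gene's share of the library's counts scaled to a common total, with library sizes adjusted by the TMM method. The floor for a gene without reads was set at 3 counts, which is 0.141 to 0.187 CPM in LPS libraries and 0.117 to 0.168 CPM in Vehicle libraries and covers counting error only. The labelled cell type was poorly borne out by its markers. Of 14 endothelial marker genes, Cldn5 had no count, Cdh5 had at most 2 counts and Pecam1 at most 17 counts in any library, and the list summed to 61.5 to 66.9 CPM in LPS and 69.3 to 74.8 CPM in Vehicle libraries, most of it from Flt1. Fibroblast markers, among them collagen genes, were all detected (10 of 10) and summed to 4127 to 5698 CPM in LPS and 6394 to 7588 CPM in Vehicle libraries. Within that list 2 genes rose (Dcn and Pi16), 3 fell (Pdgfra, Col1a1 and Col1a2) and 5 were not called. Of all genes tested, 24.9% were called higher and 24.4% lower, and the smooth muscle calls below stand beside the same shares. The 9 smooth muscle markers summed to 464 to 582 CPM in LPS and 415 to 433 CPM in Vehicle libraries, mostly from Acta2 and Smtn. Of the 5 tested, Smtn rose and 4 were not called, and Myh11 had at most 13 counts in any library. In RNA from whole cultures, fewer cells of a type and less RNA per cell cannot be told apart.

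Of the 10 genes, 7 had enough counts to be tested. Saa3, Lcn2 and Hp rose under LPS, Cp fell, and Ptx3, Serpina3n and Serpina3g were not called (edgeR quasi-likelihood test, adjusted p below 0.05 over all 14508 genes tested). The 3 higher calls stand beside 24.9% of all tested genes called higher, and the 1 lower call beside 24.4% called lower, 49.3% in all. The same 3 genes had every LPS library above every Vehicle library, as did 31.1% of all tested genes, and Cp had every LPS library below, as did 30.8%. The median log2 fold change of the 7 tested genes was 0.31, against −0.0031 for all tested genes; the 7 leave out the 3 genes with almost no reads and are not all members. Together the 10 genes took 0.164% to 0.190% of the counts in LPS libraries and 0.161% to 0.196% in Vehicle libraries. The total hardly moved while its parts did: Cp, the most abundant by CPM, fell as Lcn2, Hp and Saa3 rose.

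**Figure D1:**
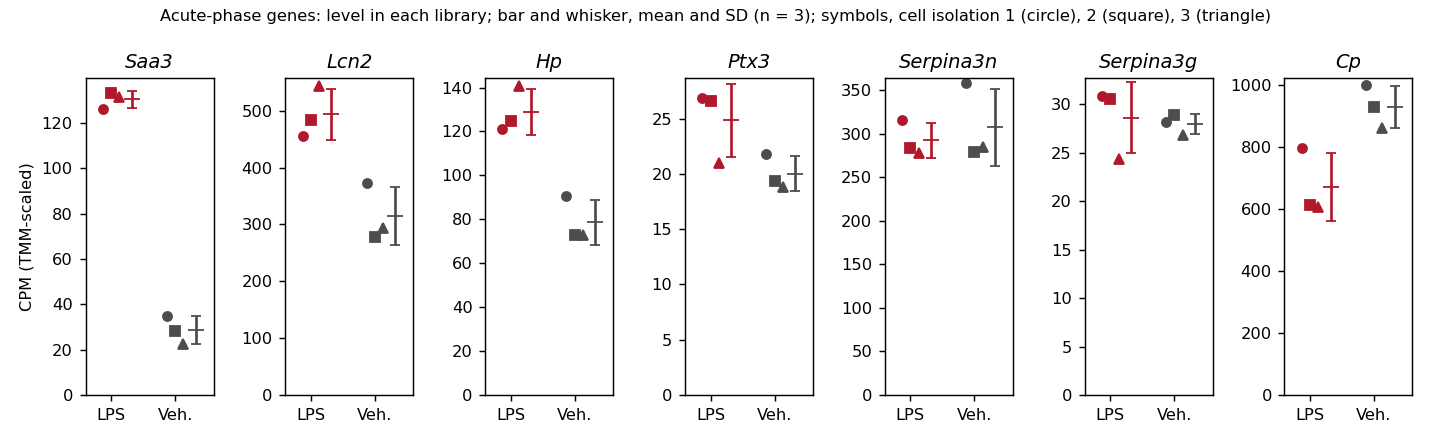
TMM-scaled CPM (y axis, linear from 0, a separate scale per gene) of the 7 tested acute-phase genes in 3 LPS libraries (red, left) and 3 Vehicle libraries (grey, right). Symbols mark the cell isolation and the bar with whiskers the mean and SD; LPS libraries lie above all Vehicle libraries for Saa3, Lcn2 and Hp, and below them for Cp.

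Saa3 had the largest change. It lies on the minus strand of GRCm38 chromosome 7 between bases 46711998 and 46715700 (ENSMUSG00000040026). Its level was 126, 133 and 132 CPM in LPS libraries 1, 2 and 3, against 34.8, 28.2 and 22.5 CPM in Vehicle libraries 1, 2 and 3. The LPS libraries lay close together, and the lowest of them was far above the highest Vehicle library. The mean was 130 ± 3.69 CPM in LPS and 28.5 ± 6.17 CPM in Vehicle (SD, n = 3 each), a log2 fold change of 2.20 (SE 0.144, 95% interval 1.88 to 2.52, edgeR adjusted p = 0.000169), or 4.58-fold. Counted from the highest, this was the 27th fold change of the 14508 tested genes. Saa3 was called under every one of the 19 other settings tried, at log2 fold changes between 1.97 and 2.38.

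Saa3 was the only gene of its locus with more than a trace of serum amyloid A RNA. Saa1 had 0 counts in every LPS library, against 1, 0 and 0 counts in the Vehicle libraries. Saa2 had 0, 0 and 1 counts in LPS and 1, 0 and 0 counts in Vehicle libraries. The values of both are at or under the floor in either group, so no fold is given. Saa1 (ENSMUSG00000074115, minus strand, 46740497 to 46742980) and Saa2 (ENSMUSG00000057465, plus strand, 46751790 to 46754313) lie 24797 and 36090 bases from Saa3 on the same chromosome. Between them and Saa3, Saa4, which encodes a constitutive serum amyloid A protein, had 0, 8 and 4 counts in LPS and 2, 1 and 1 counts in Vehicle libraries, and the pseudogene Saa-ps had none. The genes that flank the locus were expressed: Saal1, 1318 bases from Saa3, had 439, 393 and 593 counts in LPS libraries and 310, 420 and 591 counts in Vehicle libraries, and these overlap. Saa1 and Saa2 transcripts were 94.4% identical over 606 aligned bases, and 13.2% of the 50-base windows of Saa1 occurred unchanged in Saa2. The windows were taken from a 609-base transcript of Saa1, and those not found in Saa2 differed from it in their letters. How well reads of these genes were told apart was not tested. Of the Saa1 windows, 1.61% occurred in Saa3. How reads with several matches were counted is not given in the sources used here.

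**Figure D2:**
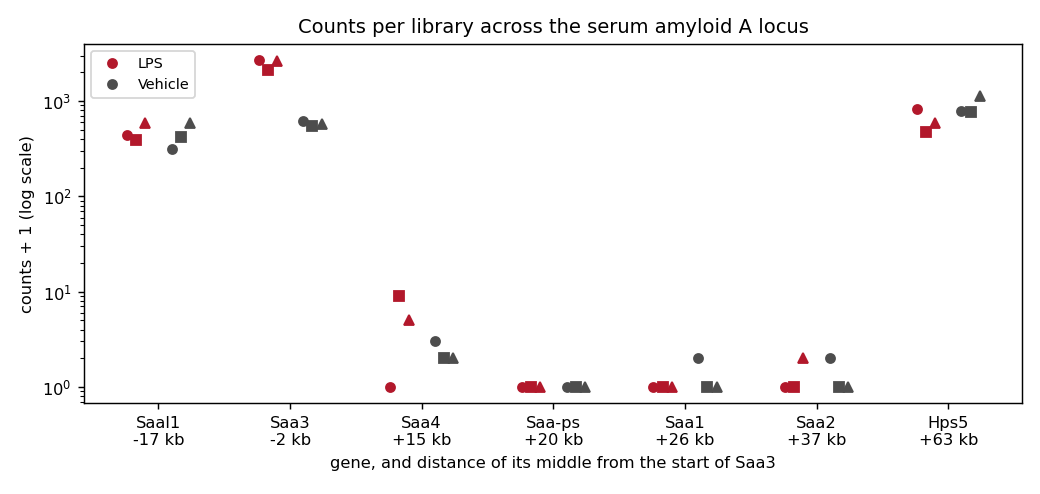
Counts + 1 per library (y axis, log scale) for the genes of the serum amyloid A locus in the order of their position, with the distance of each gene's middle from the start of Saa3 under its name. LPS libraries are red and Vehicle libraries grey, with a circle, square and triangle for isolations 1, 2 and 3; Saa3 stands at 2133 to 2677 counts in the LPS libraries while Saa1, Saa2 and Saa-ps stay at 0 or 1 count.

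The upstream sequences of the serum amyloid A genes are shown because one of these genes rose and its neighbours gave almost no reads. They come from the 250 bases before the RefSeq transcription start (GRCm38.p6), on the gene's own strand; bases annotated as untranslated in GENCODE, 24 for Saa3 and 43 for Saa2, are left out. Capitals mark matches to the C/EBP motif TTGCNNAA on either strand. The Saa3 line is chr7:46715701-46715926, minus strand, the Saa1 line chr7:46742981-46743230, minus strand, and the Saa2 line chr7:46751583-46751789, plus strand.
Saa3: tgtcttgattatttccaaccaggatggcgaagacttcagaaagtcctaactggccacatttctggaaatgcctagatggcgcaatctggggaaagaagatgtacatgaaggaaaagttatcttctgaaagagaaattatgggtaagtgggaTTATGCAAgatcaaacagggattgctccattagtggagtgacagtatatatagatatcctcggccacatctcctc
Saa1: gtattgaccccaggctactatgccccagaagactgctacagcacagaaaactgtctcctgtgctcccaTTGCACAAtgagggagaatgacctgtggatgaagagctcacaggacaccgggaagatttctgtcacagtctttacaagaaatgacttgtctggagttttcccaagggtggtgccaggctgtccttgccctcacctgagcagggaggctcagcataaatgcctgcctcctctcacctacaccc
Saa2: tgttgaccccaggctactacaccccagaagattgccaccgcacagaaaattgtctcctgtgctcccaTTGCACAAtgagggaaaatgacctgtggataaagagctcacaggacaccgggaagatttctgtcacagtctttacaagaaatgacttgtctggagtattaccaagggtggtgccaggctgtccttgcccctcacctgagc

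Over the 250 bases before the start, Saa1 and Saa2 were identical at 238 of 249 aligned bases (95.6%), and Saa3 matched Saa1 at 139 of 216 aligned bases (64.4%). With gaps counted, the identical bases were 94.8% and 48.9% of the alignment. The C/EBP match lay at positions −99 to −92 from the start of Saa3, at −182 to −175 in Saa1 and at −183 to −176 in Saa2. The motif occurred in 9.57% of the 32536 different 250-base upstream windows in the RefSeq table. Neither the kappa B motif nor the STAT motif TTCNNNGAA was found in these 3 windows; they occurred in 7.28% and 7.04% of all windows. Both strands were searched for each of them. Only full matches to a fixed pattern were counted, so stretches that differ from it by a base are not covered. A match is a description of the letters and not evidence of binding.

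Lcn2 was abundant in both groups and rose moderately under LPS. It lies on the minus strand of chromosome 2 between bases 32384633 and 32388252 (ENSMUSG00000026822). Lcn2 had 455, 484 and 543 CPM in LPS libraries 1, 2 and 3, against 373, 278 and 293 CPM in Vehicle libraries 1, 2 and 3. The groups did not overlap, and the Vehicle library of isolation 1 stood nearest to the LPS libraries. The means were 494 ± 44.7 CPM in LPS and 315 ± 50.8 CPM in Vehicle (SD, n = 3 each), with a log2 fold change of 0.65 (SE 0.125, 95% interval 0.37 to 0.93, edgeR adjusted p = 0.00274). When each gene's transcript length entered the model as an offset, its log2 fold change was 0.22 and the call ended (adjusted p = 0.129), with 20.5% of all genes called higher; this offset joined with the isolation as a block called it (adjusted p = 0.0386). Without both libraries of isolation 2 its adjusted p was 0.0807.

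Lcn2 is also a granule protein of neutrophils and a product of adipocytes, so their markers are given beside it. Of 10 neutrophil markers, Mpo, Elane, S100a9 and Cxcr2 had no count and Ly6g had 1 count in all; the list summed to 1.18 to 2.87 CPM in LPS and 0.195 to 0.469 CPM in Vehicle libraries. The 2 tested neutrophil markers were both called higher at trace level (all genes: 24.9% called higher). S100a8 had 13, 14 and 33 counts in LPS and 3, 1 and 0 counts in Vehicle libraries. Camp had 11, 16 and 21 counts in LPS and 0, 5 and 5 counts in Vehicle libraries. Both passed the count filter through their LPS libraries alone, so the direction of these calls was largely set by the filter. Of these 2, 1 remained called with the length offset (S100a8). Of 8 adipocyte markers, Adipoq and Cidec had no count, and the list summed to 59.1 to 88.2 CPM in LPS and 39.2 to 47.0 CPM in Vehicle libraries. That sum came almost wholly from Fabp4, a fatty acid carrier, and Pparg, a nuclear receptor, which both rose (log2 fold changes 0.99 and 0.52). Of these 2 calls, 1 remained with the length offset, under which 20.5% of all genes were called higher. Of 11 macrophage markers, the defining genes Ptprc, Adgre1, Fcgr1 and Tyrobp had no count, and the list summed to 30.3 to 39.3 CPM in LPS and 44.7 to 50.7 CPM in Vehicle libraries, mostly from Mertk, which fell. Epithelial and mesothelial markers summed to 44.0 to 90.3 CPM in LPS and 25.8 to 32.2 CPM in Vehicle libraries, mostly from Krt19, which rose (log2 fold change 1.27), while Krt8 had no count. The part of these marker changes in the Lcn2 and Saa3 results was not tested.

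The upstream sequence of Lcn2 follows because it carries the same motif as Saa3, again in capitals. It is chr2:32387798-32387989, minus strand, and leaves out the 58 bases next to the RefSeq start, which are annotated as untranslated. The stretch is upstream of that RefSeq start but lies inside the annotated bounds of the gene, which reach base 32388252.
Lcn2: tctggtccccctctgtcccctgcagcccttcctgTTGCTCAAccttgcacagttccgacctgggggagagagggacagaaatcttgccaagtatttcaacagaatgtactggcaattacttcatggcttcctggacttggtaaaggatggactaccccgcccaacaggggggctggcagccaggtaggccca

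Among the 250-base upstream windows of the 8 acute-phase genes present in the RefSeq table (9 windows, with 2 for Cp), a C/EBP match was found for Saa1, Saa2, Saa3, Lcn2, Ptx3 and, in 1 of its windows, Cp. These include genes that rose, that fell, that were not called and that had at most 1 count in any library. The motif occurred in 9.57% of all windows, and the Saa1 and Saa2 windows are near-copies of each other. Serpina3n held none of the motifs searched. Serpina3g held the only kappa B match, at −85 to −76, and the only STAT match, at −33 to −25, and its level under LPS was close to that of Vehicle. Whether any of these matches bears on the LPS response was not tested. The Serpina3g window is chr12:104235897-104236146, plus strand, and is shown because it holds both matches, given in capitals.
Serpina3g: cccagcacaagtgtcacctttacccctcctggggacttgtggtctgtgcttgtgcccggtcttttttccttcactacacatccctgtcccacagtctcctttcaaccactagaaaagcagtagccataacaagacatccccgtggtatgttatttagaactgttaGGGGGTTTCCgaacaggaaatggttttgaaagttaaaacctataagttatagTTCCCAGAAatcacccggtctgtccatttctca

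Hp, the haemoglobin scavenger (ENSMUSG00000031722, chromosome 8, 109575128 to 109579172, minus strand), rose by a similar factor to Lcn2. Its level was 121, 125 and 141 CPM in LPS libraries 1, 2 and 3, against 90.4, 73.0 and 72.7 CPM in Vehicle libraries 1, 2 and 3. The groups did not overlap, and as for Lcn2 the Vehicle library of isolation 1 was the highest of its group. The means were 129 ± 10.3 CPM in LPS and 78.7 ± 10.2 CPM in Vehicle (SD, n = 3 each), a log2 fold change of 0.71 (SE 0.110, 95% interval 0.47 to 0.96, edgeR adjusted p = 0.00148). Hp kept pace with Lcn2 within each library: there were 26.6, 25.8 and 25.9 Hp counts per 100 Lcn2 counts in LPS libraries, against 24.3, 26.2 and 24.8 in Vehicle libraries, and these ranges overlap. Saa3 did not: there were 27.7, 27.5 and 24.3 Saa3 counts per 100 Lcn2 counts in LPS libraries, against 9.35, 10.1 and 7.68 in Vehicle libraries. With the length offset the log2 fold change of Hp was 0.28 (adjusted p = 0.0463), and without both libraries of isolation 2 its adjusted p was 0.0644.

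Orm1, which encodes the plasma lipocalin orosomucoid (ENSMUSG00000039196, chromosome 4, 63344560 to 63348163, plus strand), gave almost no reads. It had 0 counts in all LPS libraries, against 2, 0 and 0 counts in Vehicle libraries. Its near-copies were about as low, with Orm2 at 0, 1 and 5 counts and Orm3 at 3, 3 and 0 counts in LPS libraries, and at 1, 3 and 0 and at 1, 0 and 3 counts in Vehicle libraries. Orm1 and Orm2 transcripts were 91.0% identical and 20.4% of Orm1 windows of 50 bases occurred unchanged in Orm2, so reads from those windows cannot be assigned with certainty. Hepatocyte markers were likewise low: Alb, Ttr, Apoa1, Cyp3a11 and Tat had no count, and the 10 markers summed to 3.62 to 6.22 CPM in LPS and 5.05 to 6.56 CPM in Vehicle libraries. Of the 2 that were tested, Apoa2 rose and Apob fell, both at low levels (all genes: 24.9% called higher and 24.4% lower). With the length offset neither was called.

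Ptx3 (ENSMUSG00000027832, chromosome 3, 66219910 to 66225805, plus strand) was low and not called. It had 26.9, 26.6 and 21.03 CPM in LPS libraries 1, 2 and 3, against 21.8, 19.4 and 18.9 CPM in Vehicle libraries 1, 2 and 3. LPS library 3 fell inside the Vehicle range, while each LPS library stood above the Vehicle library of its own isolation. The means were 24.9 ± 3.31 CPM in LPS and 20.0 ± 1.58 CPM in Vehicle (SD, n = 3 each), a log2 fold change of 0.31 (SE 0.129, 95% interval 0.02 to 0.60, edgeR adjusted p = 0.0690). With the isolation as a replicate block it was called higher (adjusted p = 0.0491, with 25.5% of all genes called higher in that fit), as it was without LPS library 3 (log2 fold change 0.42, adjusted p = 0.0179). With the length offset the log2 fold change was 0.02 (adjusted p = 0.913). Ptx3 lies inside the gene Veph1 on the opposite strand, without shared exon bases; Veph1 had 0 counts in all LPS libraries and 1, 0 and 3 counts in Vehicle libraries.

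The serpins did not move beyond their spread. Serpina3n, a secreted inhibitor of serine proteases (ENSMUSG00000021091, chromosome 12, 104406729 to 104414329, plus strand), was well expressed at 316, 283 and 278 CPM in LPS libraries 1, 2 and 3, against 359, 279 and 285 CPM in Vehicle libraries 1, 2 and 3. The groups overlap, and library 1 was the highest in each. The means were 292 ± 20.5 CPM in LPS and 307 ± 44.7 CPM in Vehicle (SD, n = 3 each), and the log2 fold change was −0.07 (95% interval −0.33 to 0.18, edgeR adjusted p = 0.630). With the length offset and the isolation as a block together, Serpina3n was called lower (log2 fold change −0.32, adjusted p = 0.00243), and also with the offset for the deposited gene length (−0.37, adjusted p = 0.0342); with the transcript length offset alone its adjusted p was 0.0526. The sign turned without Vehicle library 1 (0.05).

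Serpina3g, a serpin known to inhibit lysosomal cathepsins (ENSMUSG00000041481, chromosome 12, 104236245 to 104241939, plus strand), had 30.9, 30.6 and 24.4 CPM in LPS libraries 1, 2 and 3, against 28.2, 29.0 and 26.8 CPM in Vehicle libraries 1, 2 and 3. The LPS libraries spanned the whole Vehicle range. The means were 28.6 ± 3.66 CPM in LPS and 28.0 ± 1.07 CPM in Vehicle (SD, n = 3 each), with a log2 fold change of 0.03 (95% interval −0.23 to 0.30, edgeR adjusted p = 0.835). That sign turned with library sizes alone (−0.04) and with the length offset (−0.28, adjusted p = 0.120), and Serpina3g was called lower when the offset was joined with the block (adjusted p = 0.0438). Its transcript was 82.6% identical to that of Serpina3n over 1698 aligned bases and 89.5% identical to that of Serpina3f, and 6.67% of its 50-base windows occurred unchanged in Serpina3f, so a part of its reads could be shared. Of the 9 other Serpina3 family genes, 2 were tested and neither was called: Serpina3f had 43, 36 and 45 counts in LPS and 36, 26 and 53 counts in Vehicle libraries, and Serpina3h had 9, 18 and 6 counts in LPS and 10, 5 and 15 counts in Vehicle libraries. Serpina3a, Serpina3b, Serpina3j and Serpina3k had no count.

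Cp, the ferroxidase (ENSMUSG00000003617, chromosome 3, 19957054 to 20009145, plus strand), fell. It had 798, 612 and 605 CPM in LPS libraries 1, 2 and 3, against 999, 927 and 862 CPM in Vehicle libraries 1, 2 and 3. All LPS libraries lay below all Vehicle libraries, with LPS library 1 nearest to them. The means were 671 ± 109 CPM in LPS and 929 ± 68.6 CPM in Vehicle (SD, n = 3 each), a log2 fold change of −0.47 (SE 0.124, 95% interval −0.75 to −0.19, edgeR adjusted p = 0.0118). The call ended with the transcript length offset (log2 fold change −0.25, adjusted p = 0.0556) but not when that offset was joined with the isolation as a block (−0.25, adjusted p = 0.0120), and it ended with an offset for the deposited gene length (−0.05, adjusted p = 0.673). It also ended at log2 fold changes close to the reported one without Vehicle library 1 (−0.42, adjusted p = 0.0577), without LPS library 2 (−0.40, adjusted p = 0.0642) and without isolation 2 (−0.41, adjusted p = 0.188), where 8 genes in all were called higher and 0 lower (edgeR; 2587 and 2469 at an unadjusted p under 0.05). The gene has 16 annotated transcripts, the longest of 4564 bases, and a deposited length of 9566 bases; it shares 108 exon bases with Hps3 on the opposite strand, which had 396 to 516 counts in LPS and 524 to 855 counts in Vehicle libraries.

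Transcript length is given beside these values because fold changes across all genes fell with it. Spearman's rho between the longest annotated transcript and the log2 fold change was −0.574 across 14496 tested genes, which are not independent replicates. The longest transcripts of Hp, Lcn2, Ptx3 and Saa3 have 1345, 1374, 1898 and 2200 bases, and those of Serpina3g, Serpina3n and Cp have 1803, 2064 and 4564. The offset removes from each library the average trend with length, whatever its cause, which was not tested. It lowered the median log2 fold change of the 7 tested genes to 0.02, against 0.02 for all tested genes in that fit. Under it, Saa3 (log2 fold change 1.97, adjusted p = 8.73e-05) and Hp were the only 2 of the 7 called, with 20.5% of all genes called higher and 15.1% lower. With the isolation as a block beside the offset, 6 of the 7 were called: Saa3, Lcn2 and Hp higher, and Serpina3n, Serpina3g and Cp lower. Over all tested genes, 3241 were called higher and 2473 lower in that fit.

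**Figure D3:**
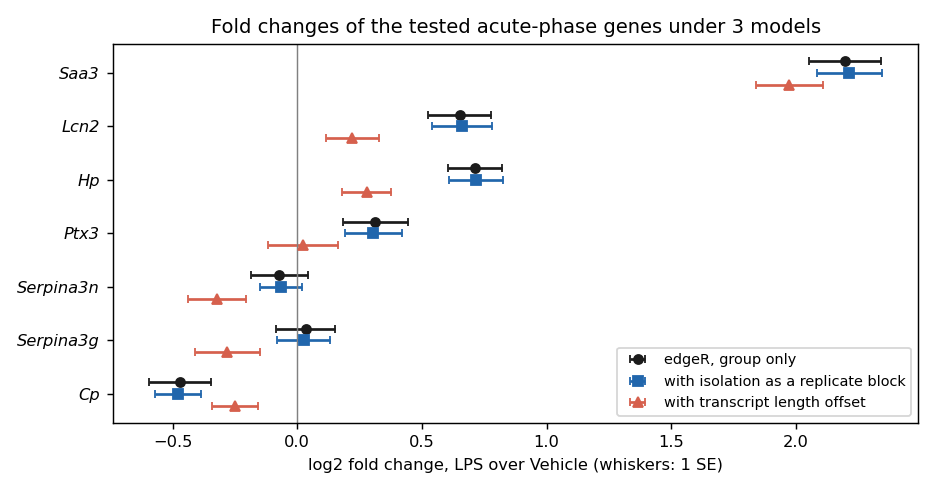
Log2 fold change of LPS over Vehicle (x axis, whiskers 1 SE) for the 7 tested acute-phase genes under 3 models: edgeR by group (black circles), with the isolation as a replicate block (blue squares) and with the transcript length offset (red triangles). Saa3 stays near 2 in each, while Lcn2 moves to 0.22 and Cp to −0.25 with the offset.

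The order of the genes by level depended on the group and on the length used. Per kilobase of deposited gene length, the LPS libraries held most Lcn2 (188 ± 17.04 CPM per kb), followed by Serpina3n (142 ± 9.93), Hp (80.2 ± 6.40), Cp (70.2 ± 11.4), Saa3 (50.02 ± 1.42), Serpina3g (13.6 ± 1.74) and Ptx3 (9.27 ± 1.23; SD, n = 3 each). In the Vehicle libraries the order was Serpina3n (149 ± 21.6 CPM per kb), Lcn2 (120 ± 19.4), Cp (97.1 ± 7.17), Hp (49.0 ± 6.33), Serpina3g (13.3 ± 0.508), Saa3 (10.9 ± 2.37) and Ptx3 (7.46 ± 0.589). Hp and Cp overlapped in the LPS libraries, and Serpina3n and Lcn2, as well as Serpina3g and Saa3, overlapped in the Vehicle libraries. The deposited length exceeds the longest transcript for genes with several transcripts, which lowers their values. Per kilobase of the longest transcript, Cp came second after Lcn2 in both groups, at 147 ± 24.0 against 359 ± 32.5 CPM per kb in LPS and at 204 ± 15.03 against 229 ± 37.0 CPM per kb in Vehicle libraries. It overlapped Serpina3n in the LPS libraries and Lcn2 in the Vehicle libraries, and on this scale the order of the groups differed only in Saa3 and Serpina3g. Among the 14508 tested genes, Saa3 ranked 1164th by level per deposited length in LPS and 4389th in Vehicle libraries.

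The ratio of LPS over Vehicle varied from isolation to isolation. The log2 ratio of LPS over Vehicle CPM for Saa3 was 1.86, 2.24 and 2.55 in isolations 1, 2 and 3, and for Lcn2 it was 0.29, 0.80 and 0.89. For Hp it was 0.42, 0.78 and 0.95, and for Cp −0.32, −0.60 and −0.51. Isolation 1 had the smallest ratio in size for all 4 called genes, and its Vehicle library had the highest level of each of them. Ptx3 ran differently, with ratios of 0.30, 0.46 and 0.16. With 1 culture per isolation and treatment, a difference in response between isolations could not be tested. In the model with isolation and treatment, 0 of the 7 genes differed in level between isolations (edgeR F-test of both isolation terms; 1 gene, Serpina3n, at an unadjusted p = 0.0499), against 0.00689% of all tested genes.

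**Figure D4:**
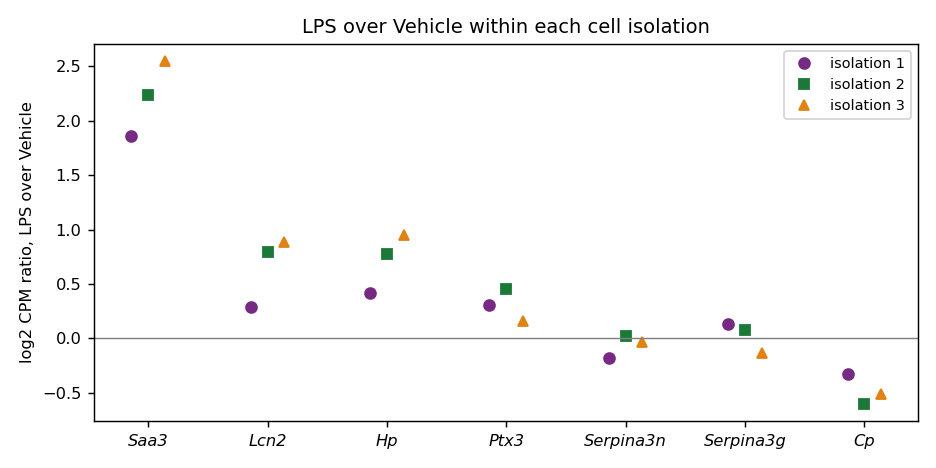
Log2 ratio of CPM, LPS over Vehicle (y axis), within isolation 1 (purple circles), 2 (green squares) and 3 (orange triangles) for the 7 tested acute-phase genes. Saa3, Lcn2 and Hp are above 0 and Cp below 0 in all 3 isolations, with isolation 1 nearest to 0 for these 4 genes.

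Of 11 cytokines that drive acute-phase genes, 4 were tested and 3 rose (all genes: 24.9% called higher): Il6, Lif and Il11, which all signal through Il6st. With the length offset 3 were called higher (all genes: 20.5%). Il6 had 518 ± 123.4 CPM in LPS and 95.04 ± 19.9 CPM in Vehicle libraries, Lif had 224 ± 49.4 CPM in LPS and 55.5 ± 13.1 CPM in Vehicle libraries, and Il11 had 59.8 ± 46.3 CPM in LPS and 9.20 ± 4.23 CPM in Vehicle libraries (SD, n = 3 each). Their log2 fold changes were 2.44, 2.01 and 2.68 (edgeR adjusted p = 0.000419, 0.000761 and 0.00270). LPS library 3 was the highest for Il11, at 113 CPM beside 26.8 and 39.9 CPM in LPS libraries 1 and 2, and without it the log2 fold change was 1.83. Ctf1, of the same family, had 2.71 ± 0.613 CPM in LPS and 2.75 ± 0.203 CPM in Vehicle libraries and was not called (adjusted p = 0.928). The other 7 had at most 9 counts in any library: Il1b had 0, 1 and 0 counts in LPS and none in Vehicle libraries, and Tnf had none in LPS and 0, 0 and 2 counts in Vehicle libraries. Il17a and Il22 had no count.

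Of 16 tested receptors and receptor kinases, 3 rose and 6 fell (all genes: 24.9% and 24.4%), with a median log2 fold change of −0.27 beside −0.0031 for all genes; with the length offset 3 rose and 2 fell (all genes: 20.5% and 15.1%). Il6st, the shared signal transducer, fell to 875 ± 245 CPM in LPS, against 1610 ± 153 CPM in Vehicle libraries (log2 fold change −0.88, edgeR adjusted p = 0.00345), and with the length offset its call ended (−0.26, adjusted p = 0.0816), though not when the block was added (−0.27, adjusted p = 0.0142). Tlr4, the LPS receptor, fell by 0.85 on the log2 scale, and by 0.72 with the offset. Lifr fell by 0.82, a call that ended with the offset (adjusted p = 0.266). Cd14, the LPS coreceptor, rose by 0.76 to 12.3 ± 2.22 CPM in LPS, against 7.25 ± 1.14 CPM in Vehicle libraries, and its call also ended with the offset (adjusted p = 0.0735). Tnfrsf1a, the most abundant receptor gene without a call, had 173 ± 5.56 CPM in LPS and 169 ± 7.55 CPM in Vehicle libraries (adjusted p = 0.756). Its sign turned with library sizes alone (−0.04) and with the length offset, under which it was called lower (−0.20, adjusted p = 0.0444).

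Of 14 tested transcription factor genes of the response, with the feedback inhibitor Socs3, 7 rose and 2 fell (all genes: 24.9% and 24.4%), and 7 and 1 were called with the length offset (all genes: 20.5% and 15.1%). Of the C/EBP genes, 3 rose, Cebpg was not called (adjusted p = 0.107) and Cebpe had no count. Cebpb rose to 159 ± 19.0 CPM in LPS, against 94.5 ± 9.78 CPM in Vehicle libraries, Cebpd to 407 ± 46.2 CPM in LPS, against 261 ± 9.70 CPM in Vehicle, and Cebpa to 23.3 ± 0.984 CPM in LPS, against 15.6 ± 0.379 CPM in Vehicle (log2 fold changes 0.75, 0.64 and 0.58; edgeR adjusted p = 0.00144, 0.00148 and 0.00218). All 3 remained called with the offset, at 0.35, 0.72 and 0.45. Nr3c1, the glucocorticoid receptor, fell by 0.75 on the log2 scale (adjusted p = 0.00238), or by 0.29 with the offset (adjusted p = 0.0277). Stat3 fell by 0.44 (adjusted p = 0.00427), a call that ended with the offset. Nfkb1 had 283 ± 17.7 CPM in LPS and 278.5 ± 5.87 CPM in Vehicle libraries and was not called (adjusted p = 0.826). Its sign turned with library sizes alone, and it was called higher with the deposited length offset (log2 fold change 0.56, adjusted p = 0.00168). Other genes of the nuclear factor kappa B system were called only in part. Relb (0.55, adjusted p = 0.00165), Bcl3 (0.38, adjusted p = 0.0160) and Nfkbiz (0.26, adjusted p = 0.04995) rose. Rela (0.23, adjusted p = 0.0766), Nfkb2 (0.18, adjusted p = 0.0773) and Rel (−0.29, adjusted p = 0.0907) were not called, and Rel had the opposite sign. The liver factor Hnf4a had at most 3 counts in any library.

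**Figure D5:**
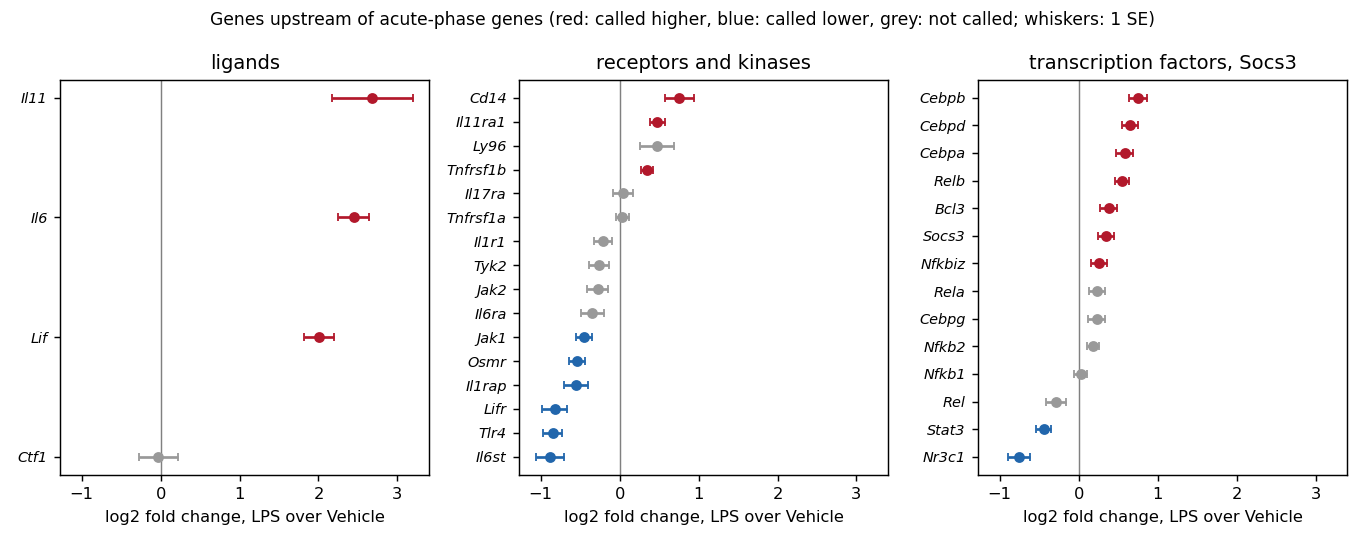
Log2 fold change of LPS over Vehicle (x axis, whiskers 1 SE) for tested ligand, receptor and transcription factor genes of the acute-phase response. Red marks genes called higher, blue genes called lower and grey genes not called; Il11, Il6 and Lif lie at 2 or more, Il6st, Tlr4 and Lifr at the low end of the receptors.

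Among 31 other genes for acute-phase and related defence proteins, 14 were tested, of which 4 rose and 3 fell, and 2 rose and 1 fell with the length offset (all genes: 24.9% and 24.4%, and 20.5% and 15.1% with the offset). The 14 had a median of 0.24 on the log2 scale, which the offset moved to −0.01. The metallothionein genes Mt1 and Mt2, which bind zinc and copper, rose by 1.46 and 0.87 on the log2 scale (edgeR adjusted p = 0.00109 and 0.00846); the call of Mt2 ended with the offset (adjusted p = 0.238). Steap4, a metalloreductase, fell to 158 ± 34.0 CPM in LPS, against 261 ± 19.5 CPM in Vehicle libraries (log2 fold change −0.72, adjusted p = 0.00301, and −0.76 with the offset). The complement gene C3 was abundant and fell to 1613 CPM in LPS, against 2218 CPM in Vehicle libraries (log2 fold change −0.46, adjusted p = 0.0150), a call that ended with the offset. Lbp, which hands LPS to Cd14, had means of 18.9 CPM in LPS and 18.3 CPM in Vehicle libraries and was not called (adjusted p = 0.790). Crp, Apcs, Fgg and Hamp, made chiefly by the liver, had no count, and Fga and Fgb had at most 3 and 2 counts in any library.

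Of 21 genes for receptors and partners of the encoded proteins, 9 were tested, 1 rose and 3 fell, and 1 and 2 were called with the length offset, against the same shares of all genes. Mmp9, whose protein forms a complex with Lcn2, rose to 26.1 ± 1.70 CPM in LPS, against 12.1 ± 2.54 CPM in Vehicle libraries (log2 fold change 1.11, edgeR adjusted p = 0.00144, and 1.08 with the offset). Slc22a17, described as an Lcn2 receptor, fell by 0.47 on the log2 scale (adjusted p = 0.00855), a call that ended with the offset (adjusted p = 0.0694). Lrp1, a scavenger receptor with a very long transcript, fell by 1.15, or by 0.35 with the offset. The haptoglobin receptor Cd163 and the serum amyloid A receptor Fpr2 gave at most 5 and 1 counts in any library, while Tlr2 (56.4 CPM in LPS, 59.2 CPM in Vehicle) and Scarb1 (53.9 CPM in LPS, 55.8 CPM in Vehicle), also described as serum amyloid A receptors, were expressed and not called; Gzmb, Ctsg and Elane, the protease targets of Serpina3-type inhibitors, had no count.

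Among 10111 other protein-coding genes whose mean reached 5 CPM, those most like Saa3 over the 6 libraries by Pearson's r of log2 CPM were Mief2 (0.9997), Isca2 (0.998), Apip (0.996), Prss36 (0.996) and Cxcl2 (0.995). The measure compares the shape of the pattern and not its size: the log2 fold change of Mief2 was 0.50 and that of Cxcl2, a neutrophil attractant, 3.39. The genes most like Lcn2 were Echs1 (0.997), Kxd1 (0.994), Lyrm2 (0.994), Lgmn (0.994) and Hp (0.993). Hp was thus among the 5 genes nearest to Lcn2. All 6 points share the split into LPS and Vehicle libraries, so such values describe these libraries and carry no test.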

How the data were processed

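The authors deposited unnormalised counts for each gene in 6 libraries, beside a gene length in bases, per the file headers. The submitters' processing notes name HISAT2 and the builds GRCm38 and mm10. Counting tool, annotation and strand setting: not given in the sources used here, so reads where genes overlap could not be assigned by strand. Columns without LPS in their name were taken as Vehicle. GENCODE M21 held 99.774% of gene IDs and the same coordinates for all 10 members.

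Groups of 3 LPS and 3 Vehicle libraries entered edgeR 4.0.16 under R 4.3.3 (TMM, filterByExpr, 2-sided quasi-likelihood F-test, Benjamini-Hochberg adjustment, calls at 0.05); the code was tested on simulated data. SEs are the fold change over the root of F; SDs are between libraries. Alternatives were DESeq2 1.42.0, limma-voom (limma 3.58.1), other scalings, filters and thresholds, length offsets (a natural spline with 5 degrees of freedom per library), left-out libraries and the isolation as a replicate block. The labels tie each number to 1 cell isolation, so libraries are paired; deviations of paired libraries from group means correlated by 0.134, −0.0604 and 0.274. Members, gene lists, motifs and rules were chosen with earlier results of these data known. Named genes are all members, up to 4 called genes per list by size of change, its most abundant uncalled gene and the 5 genes most like Saa3 and Lcn2. Genes named for marker lists, at trace counts or beside these (C3, Stat3, Lbp, Relb, Bcl3, Nfkbiz, Rela, Nfkb2, Rel, Tlr2, Scarb1, Saal1, Hps3, Veph1) were chosen after their values were seen. A few genes picked by this rule are left out of the text.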

Additional observations from a re-analysis of the deposited data

How the results depend on the processing

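Over 19 alternatives for each of the 7 tested acute-phase genes, 113 log2 fold changes kept direction and side of the threshold, 8 fell back across it, 4 passed it and 8 turned sign; Saa3 was called in every alternative, and the 8 turned signs belong to Serpina3n and Serpina3g. The number of acute-phase genes called higher was 3. It was 2 with the transcript length offset, 4 with the replicate block and 4 without LPS library 3. It was 1 without both libraries of isolation 2, an alternative chosen after seeing the data. The number called lower was 1, but 0 with the transcript length offset, without isolation 2 and at an adjusted p below 0.01, 3 with that offset joined with the replicate block, and 0 to 1 when single libraries were left out. That offset with the block gave 3241 higher and 2473 lower calls over all genes. Over all genes, 3616 higher and 3534 lower calls became 8 and 0 without isolation 2 (edgeR; 2587 and 2469 at an unadjusted p under 0.05) and 2309 and 2223 at an adjusted p below 0.01; the length offset left 2194 lower calls. Leaving out single libraries gave 2528 to 4362 higher and 2486 to 4463 lower calls. The replicate block, which pairs libraries of an isolation, gave 3706 higher and 3693 lower calls and, among the 7 acute-phase genes, changed only the call of Ptx3.

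Serpina3g was −0.037 with library sizes alone, −0.26 with the deposited length offset, −0.28 with the transcript length offset, −0.30 with that offset and the block, and −0.034 without isolation 1; single libraries left out gave −0.032 to 0.14, and for Serpina3n −0.14 to 0.052. Tnfrsf1a, in the same first 4 settings, was −0.041, −0.19, −0.20 and −0.20, and −0.0081 without isolation 2. Nfkb1 was 0.56 and called higher with the deposited length offset, −0.048 with library sizes alone, −0.044 without isolation 1 and −0.022 to 0.076 with single libraries left out. Ctf1 was 0.13 without isolation 3 and −0.21 to 0.11 with single libraries left out. Serpina3f was −0.010 with the deposited length offset. Fgf2, lower by −0.23 in the reported model, was 0.023, 0.21 and 0.20 with the 3 length offsets, and Kxd1 was −0.067 with the transcript length offset, with or without the block. The cause of these changes was not tested. At these depths Saa1, Saa2 and Orm1 were not detectable above the floor.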
